A study of Mus musculus with 2 samples.

Results

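H3K4me3 regions that lay wholly upstream of the start site listed for their gene were examined for H3K9me3, a histone mark of silenced chromatin. Members were chosen by position and strand alone. For a gene on the plus strand the region had to end before the start site, and for a gene on the minus strand it had to begin after it, with at least 1 base between in both cases. The rule found 462 of 1381 regions (33.5%), each belonging to a different gene. Of the rest, 326 regions spanned or, in 2 cases, adjoined the start site and 593 lay wholly downstream of it. H3K9me3 had been measured by chromatin immunoprecipitation and sequencing in LSK cells, a bone marrow fraction named for the absence of lineage markers and the presence of Sca-1 and c-Kit, which contains blood stem and progenitor cells. The 2 libraries came from C57BL6 mice, 1 from WT control mice and 1 from conditional Kdm4a, b c triple knockout mice. Both groups were given tamoxifen and sampled 2 weeks later. Neither the Cre driver nor the number and age of the mice behind each library is given in the sources used here.

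H3K4me3 marks nucleosomes beside active start sites, often on both sides of the nucleosome-free stretch where transcription begins. Many mammalian promoters are transcribed in both directions, toward an annotated neighbour on the other strand or as short unstable antisense RNA, and the upstream side of such a promoter carries the mark as well. H3K9me3 is bound by heterochromatin proteins and is usually absent from active promoters. Kdm4a, Kdm4b and Kdm4c encode demethylases that remove methyl groups from H3K9me3.

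The totals behind the values were 24673463 control and 26061344 knockout reads. The table lists only regions with a knockout over control ratio above 2 and at least 1 control read (lowest ratio 2.01). Higher H3K9me3 in the knockout at every region is therefore a property of the table and not a result. With 1 library in each group there is no spread between replicates and no test between conditions. Of 9 marker genes of LSK cells 1 was in the table, the Sca-1 gene Ly6a, and not by an upstream region. None of 8 markers of mature blood cells was. Absence from a table selected in this way says nothing about expression.

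Divergent promoters were a visible part of the upstream regions, and the stretch between the paired start sites is shown here for the 6 members with the most knockout reads for which RefSeq (GRCm38.p6) held a promoter at the listed start and 25 to 250 bases lay between both starts. Coordinates here and throughout are 1-based on mm10 (GRCm38). Each is written 5′ to 3′ on the strand of the listed gene, ending at the base before its start site. Capitals mark CpG dinucleotides.
Znrd1 and Znrd1as (chr17:36958526-36958554, strand -): ctcCGggCGcactCGttgccCGaCGcctt
Fbxw2 and Gm34653 (chr2:34826236-34826315, strand -): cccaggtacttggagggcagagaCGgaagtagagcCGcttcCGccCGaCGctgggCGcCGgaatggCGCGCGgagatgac
Mis18a and Gm17518 (chr16:90727372-90727419, strand -): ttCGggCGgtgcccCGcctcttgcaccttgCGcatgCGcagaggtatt
Odf2l and Gm40163 (chr3:145118414-145118588, strand +): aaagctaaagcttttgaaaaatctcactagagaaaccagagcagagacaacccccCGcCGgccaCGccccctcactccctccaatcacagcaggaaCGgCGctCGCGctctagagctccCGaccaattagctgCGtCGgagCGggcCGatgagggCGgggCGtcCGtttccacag
9430065F17Rik and Zfp748 (chr13:67553153-67553233, strand +): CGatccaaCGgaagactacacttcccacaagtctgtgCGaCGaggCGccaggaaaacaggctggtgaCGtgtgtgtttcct
Naa60 and Zfp597 (chr16:3884378-3884618, strand +): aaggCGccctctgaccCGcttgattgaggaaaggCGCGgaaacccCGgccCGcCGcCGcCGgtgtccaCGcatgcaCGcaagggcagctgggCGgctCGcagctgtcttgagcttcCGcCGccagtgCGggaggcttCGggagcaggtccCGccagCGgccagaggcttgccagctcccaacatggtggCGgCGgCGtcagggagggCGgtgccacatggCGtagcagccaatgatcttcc
These stretches were rich in G and C, from 55.6% at 9430065F17Rik to 72.4% at Znrd1, and held between 5 and 24 CpGs. The Mis18a stretch also matched the palindromic motif known for the factor NRF1.

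Members with no annotated divergent neighbour are shown by the 250 bases before the start site. These are the 4 with the highest log2 ratio of knockout to control H3K9me3 among well covered members (mean H3K9me3 at or above the table median of 0.156 RPM) whose region came within 180 bp of a start site that is also the outer RefSeq 5′ end of the gene. Capitals mark the bases inside the H3K4me3 region, and the lower-case bases lie between the region and the start site.
1700028E10Rik (chr5:151368425-151368674, strand +): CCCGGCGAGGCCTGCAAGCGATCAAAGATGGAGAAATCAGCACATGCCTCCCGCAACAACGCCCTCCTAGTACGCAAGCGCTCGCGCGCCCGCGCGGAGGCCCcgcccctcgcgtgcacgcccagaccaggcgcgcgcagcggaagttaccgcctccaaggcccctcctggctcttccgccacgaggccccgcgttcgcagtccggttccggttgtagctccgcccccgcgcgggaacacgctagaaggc
Elob (chr17:23829110-23829359, strand -): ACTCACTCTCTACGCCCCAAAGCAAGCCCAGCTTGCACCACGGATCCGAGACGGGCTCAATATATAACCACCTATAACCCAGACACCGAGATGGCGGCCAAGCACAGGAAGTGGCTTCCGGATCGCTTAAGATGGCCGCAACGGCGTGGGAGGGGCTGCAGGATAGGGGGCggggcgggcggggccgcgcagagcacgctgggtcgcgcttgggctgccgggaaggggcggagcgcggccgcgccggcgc
Gtf2b (chr3:142764997-142765246, strand +): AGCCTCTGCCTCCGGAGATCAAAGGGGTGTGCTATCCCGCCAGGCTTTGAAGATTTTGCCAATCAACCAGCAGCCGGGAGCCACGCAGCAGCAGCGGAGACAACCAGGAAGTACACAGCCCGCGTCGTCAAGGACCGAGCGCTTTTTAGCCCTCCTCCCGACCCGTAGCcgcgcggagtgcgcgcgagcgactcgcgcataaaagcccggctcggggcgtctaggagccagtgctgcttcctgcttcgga
Ndufv1 (chr19:4012756-4013005, strand -): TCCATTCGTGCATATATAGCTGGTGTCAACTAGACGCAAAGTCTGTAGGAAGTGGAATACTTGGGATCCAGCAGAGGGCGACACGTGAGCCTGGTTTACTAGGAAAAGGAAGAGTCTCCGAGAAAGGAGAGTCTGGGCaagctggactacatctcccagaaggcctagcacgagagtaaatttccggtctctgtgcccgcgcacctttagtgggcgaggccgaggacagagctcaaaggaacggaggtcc
Between 103 bases (1700028E10Rik) and 171 bases (Elob) of each window lay inside the region. The windows of 1700028E10Rik, Elob and Gtf2b held 25 to 34 CpGs, and that of Ndufv1 held 12.

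The regions lay close to the start site without reaching it. The edge facing the start site was a median of 169 bp away (quartiles 81.25 and 303), and no edge was farther than 813 bp. Wholly downstream regions, which meet the mirrored rule, kept a larger distance, with a median of 271 bp (164 and 421). The table holds only regions centred within 1000 bp of a start site, which limits the distance on either side. In the plot of placement, coverage by upstream regions peaked 400 bp before the start site, and coverage by downstream regions peaked 590 bp after it.

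**Figure D1:**
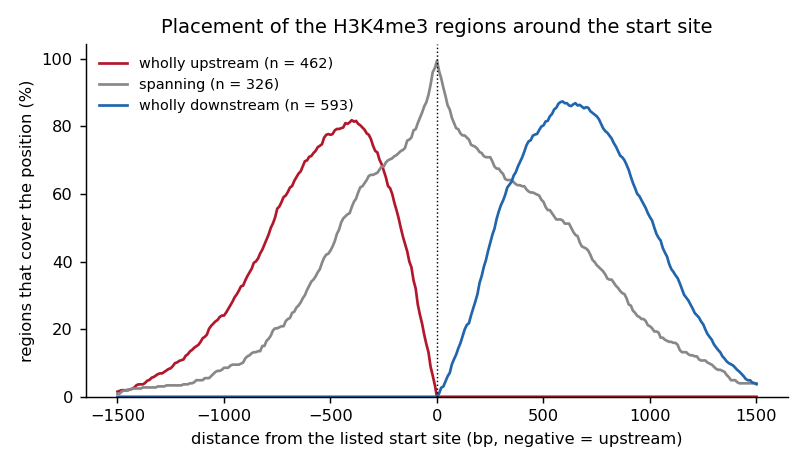
Share of regions that cover each position (y axis, percent) against the distance from the listed start site in bp (x axis, negative is upstream), with 1 line for each place. Upstream regions peak at 400 bp before the start site, where 81.8% of them cover the position, and downstream regions at 590 bp after it (87.4%).

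The rule had a sharp edge at the start site. Just inside it were Samm50, of the machinery that inserts proteins into the mitochondrial outer membrane, with 1 bp between region and start site, Champ1 with 3 bp, and the splicing factor gene Rbm22 with 4 bp. Just outside were Tmem55a and the ubiquitin-conjugating enzyme gene Ube2j2, whose regions ended at the base before the start site, with 0 bases between, and Tlcd2, whose region covered the start site and 1 base beyond it. Farthest upstream were the exonuclease gene Exo5 (813 bp), Sccpdh (766 bp), the adhesion molecule gene Mdga1 (763 bp), Coprs (731 bp) and the corepressor gene Irf2bp1 (724 bp). These 5 were narrow regions of 348 to 448 bp. With centres limited to 1000 bp from the start site, only narrow regions can have an edge this far away.

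Upstream regions were narrower and lower than the others. Their median width was 550.5 bp (quartiles 410 and 724.75), against 691 bp (493 and 875) for downstream and 1037.5 bp (681.5 and 1390) for spanning regions. Wide regions reach a start site more easily, so the widths of upstream and spanning regions are not independent of the rule. Upstream and downstream regions meet mirrored rules to within 1 base. What part the rule had in these widths was not tested. Of the upstream regions, 105 (22.7%) were under 400 bp, against 65 of the downstream regions (11.0%). The most frequent single width, 348 bp, accounted for 33 upstream regions (7.14%).

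H3K4me3 height, the authors' RPKM of each region, had a median of 9.78 (quartiles 8.17 and 13.5) upstream, 11.3 (8.97 and 15.5) downstream and 12.4 (9.88 and 16.01) for spanning regions. The boxes overlapped widely, and the differences in width and height were not tested because regions of 1 table are not replicates. Within the upstream set wider regions were also taller, with a Spearman's rho of 0.48 over 462 regions, all scored on H3K4me3 data that are not among the samples analysed here. Heights reached 43.2 RPKM at Med17, a subunit of the Mediator complex, with Arsk (42.3 RPKM), the RNA exosome subunit gene Exosc4 (37.3), Lrrc51 (36.6) and the nucleolar protein gene Nol8 (35.2) following. Their H3K9me3 was low in both libraries, with 1 or 2 control reads and 3 to 8 knockout reads each. For the knockout over control ratio of H3K9me3, an exact 95% interval was taken from the read counts of both libraries, and it lay above 1 for 21.1% of the whole table. Exosc4 was the only one of these 5 with such an interval above 1 (1 and 8 reads, ratio 7.57, 1.02 to 336).

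**Figure D2:**
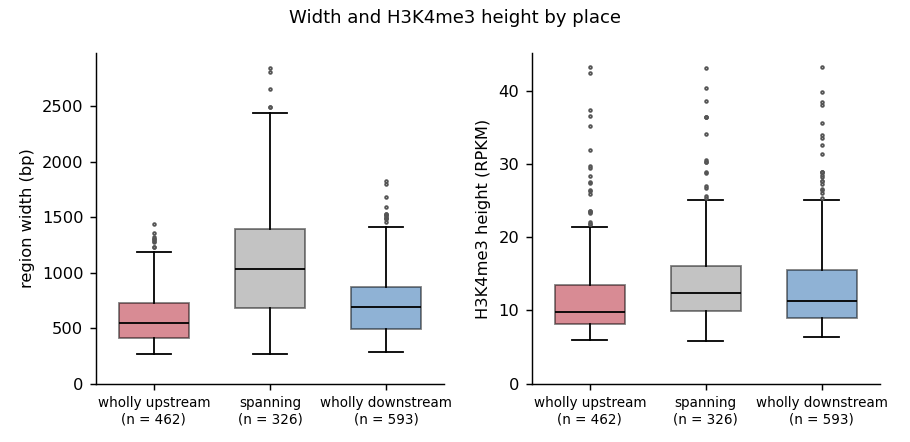
Box plots of region width in bp (left) and H3K4me3 height in RPKM (right) for wholly upstream, spanning and wholly downstream regions, with median, quartiles, whiskers to 1.5 times the interquartile range and single points beyond. The upstream box is the lowest in both panels, with medians of 550.5 bp and 9.78 RPKM.

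The widest upstream region, 1444 bp, belonged to the gene Rsrc2. Fam149b (1355 bp), Brd2, a bromodomain protein that binds acetylated histones (1326 bp), Reep3 (1308 bp) and Exoc3l (1307 bp) came next. Their regions held 1 to 5 control and 3 to 13 knockout reads, and equal H3K9me3 lay within the counting interval at all 5. The start site of the neighbour Kntc1 lay inside the Rsrc2 region, and that of Ecd lay 26 bp from the Fam149b region.

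H3K9me3 in the upstream regions was low in absolute terms and differed little from the rest of the table. The median upstream region had 2 reads in the control (quartiles 1 and 3, highest 17) and 6 in the knockout (4.25 and 11, highest 47). In RPM the medians were 0.0811 and 0.230. The 462 regions together held 1152 control and 4234 knockout reads, and their joint RPM ratio was 3.48 (3.26 to 3.72, exact 95% counting interval). The same sum gave 3.35 (3.16 to 3.56) downstream, 3.50 (3.24 to 3.79) for spanning regions and 3.41 (3.25 to 3.58) over all 919 other regions. All of these intervals overlap, so no difference in the joint ratio by place was detectable at this depth. Without an input library among the samples analysed here, enrichment over background cannot be judged in either library. More cells carrying the mark and more of the mark in each cell cannot be told apart in bulk chromatin.

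The median deposited ratio was 2.84 upstream (quartiles 2.84 and 4.73) and 3.08 over the other regions (2.84 and 4.26). The median log2 ratio, after adding 0.0405 RPM to both libraries, was 1.26 in both. The counting interval lay above 1 for 107 upstream regions (23.2%), against 21.1% of the whole table, 17.5% of downstream and 24.8% of spanning regions. It lay above 2 for 21 upstream regions (4.55%), against 3.48% of the whole table. These shares are near the background of the table, and a region with more reads reaches either limit more easily.

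Because a ratio above 2 requires at least 3 knockout reads where the control has 1, ratios were also compared within classes of control reads. A single control read was found in 208 upstream regions (45.0%) and 432 others (47.0%), and the knockout median was 4 reads in both. The joint ratios in this class were 4.87 (4.19 to 5.68) upstream and 4.48 (4.03 to 4.98) in the others. With 2 control reads the median was 6 in both, and with 3 to 4 it was 10 in both. With 5 or more control reads (55 upstream regions, 103 others) the medians were 21 and 18 knockout reads, and the joint ratios were 2.80 (2.51 to 3.14) and 2.83 (2.61 to 3.07). In that best covered class the intervals of upstream and other regions overlapped almost entirely.

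**Figure D3:**
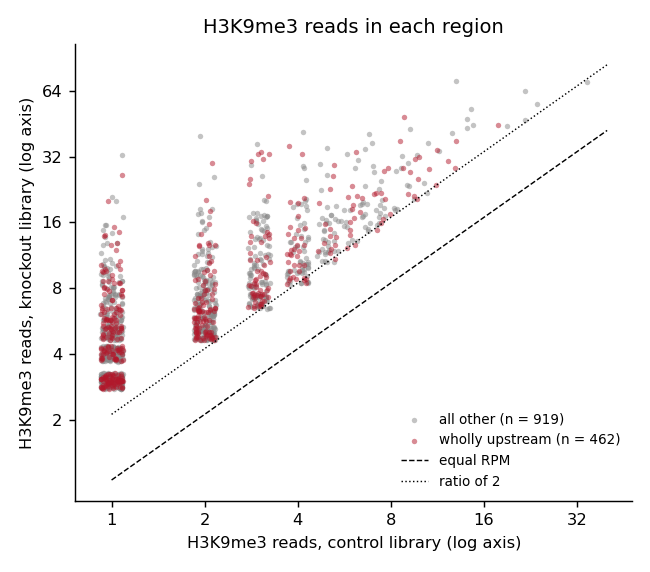
Control reads (x axis) and knockout reads (y axis) of each region on log axes, with small random shifts to separate equal counts, for upstream regions (red) and all others (grey), with lines for equal RPM and for a ratio of 2. Before the shifts all regions lie above the line for a ratio of 2, and red and grey points overlap throughout.

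Joint ratios did not differ beyond their counting intervals at different distances from the start site. The share of regions with an interval above 1 was highest from 100 to 200 bp and lowest beyond 400 bp. Members whose edge lay up to 100 bp away (151 regions) had a joint ratio of 3.41 (3.05 to 3.82), those from 100 to 200 bp (114 regions) 3.67 (3.24 to 4.18), those from 200 to 400 bp (122 regions) 3.43 (3.01 to 3.93), and those beyond 400 bp (75 regions) 3.36 (2.80 to 4.05). The interval lay above 1 for 25.2%, 32.5%, 18.03% and 13.3% of them, against 21.1% of the whole table. The last of these shares is 10 of 75 regions. Median knockout reads were 7, 7, 6 and 5 in the same order, and the part of read number in these shares was not tested. Across the 462 regions, total H3K9me3 reads had a Spearman's rho of -0.12 with region width and -0.07 with H3K4me3 height. These are weak correlations in sparse counts of the same pair of libraries. None of the sources used here gives the window in which reads were counted.

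The highest log2 ratios were found at Ubxn2a, Irgm2, Il3ra, 1700028E10Rik, Rwdd1, Elob, Gtf2b, Zfp33b, Tmem19 and Ino80, among the 248 members with a mean H3K9me3 at or above the median of the table. Ndufv1 and Rbfa were tied with Ino80 and come later in alphabetical order. Ubxn2a, which encodes an adaptor of the p97 ATPase, had 1 control read and 26 knockout reads (0.0405 and 0.998 RPM) in its region on chromosome 12 (4907754 to 4908615), where the ratio was 24.6 (4.04 to 1009). For Irgm2, an immunity-related GTPase gene, 1 and 20 reads (ratio 18.9, 3.03 to 785) fell in a 400 bp region on chromosome 11 (58214362 to 58214761). The upper limits are wide because a single control read fixes the denominator. Il3ra, a receptor gene for interleukin-3, showed 2 and 28 reads (13.3, 3.34 to 115), and its outer RefSeq 5′ end lies inside the region.

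Gtf2b, Elob and Ino80 encode proteins that act in transcription or on chromatin. Gtf2b encodes TFIIB, the general factor that positions RNA polymerase II at the start site, and its region on chromosome 3 (142764553 to 142765165) had 3 and 33 reads (10.4, 3.27 to 53.1). Its region ended 81 bp before the start site and was tall in H3K4me3 (31.9 RPKM). Elob encodes elongin B, a subunit of an elongation factor and of ubiquitin ligases, and had the same 3 and 33 reads in a region on chromosome 17 (23829189 to 23829792). Ino80, the ATPase of a chromatin remodelling complex, had 1 and 14 reads (13.3, 2.02 to 560), with its outer 5′ end inside the region.

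The remaining members of this top group were varied in kind. The long non-coding RNA gene 1700028E10Rik and the gene Rwdd1 each had 3 and 34 reads (10.7, 3.37 to 54.6). Zfp33b, a zinc finger gene, had 3 and 33 reads, and Tmem19 had 1 and 15 (14.2, 2.18 to 598). The lower counting limit was above 2 for all 10, but these had been chosen for their high log2 ratios. It was also above 2 for Znrd1 and Mtif2, described next, and for 9 further members. Among the 9, named here after their values were seen, were Calm3, Farsb, Mfsd9, Nanp, Ndufv1, Rbfa, Stam2 and Zbed6. Together these are 21 members, 4.55% of the upstream regions, against 3.48% of the whole table. Of these 21, Znrd1 alone had a known divergent neighbour, and Rbfa was not assessed for one.

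Knockout levels were highest at Znrd1, 2810474O19Rik, Stil, Mtif2 and Ppp1r21, the last pair tied at 35 reads with Zfp451, which comes later in alphabetical order. Znrd1, a subunit of RNA polymerase I, reached 47 knockout reads beside 9 control reads (1.80 and 0.365 RPM; ratio 4.94, 2.40 to 11.5) in its region on chromosome 17 (36958597 to 36959510). 2810474O19Rik had 17 and 43 reads (2.39, 1.34 to 4.48), and the highest control count of the upstream set. Stil, required for centriole duplication, had 9 and 36 reads (3.79, 1.79 to 8.94). Mtif2, which encodes a mitochondrial translation initiation factor, had 4 and 35 (8.28, 2.96 to 32.1), and Ppp1r21 had 11 and 35 (3.01, 1.495 to 6.58). Zfp451, a zinc finger gene, had 14 and 35 (2.37, 1.24 to 4.76). For all 6 the interval lay above 1, against 21.1% of the whole table. These 6 were picked for their many knockout reads, which make an interval above 1 easier to reach. The intervals also leave aside that only ratios above 2 were listed, so the comparison with the table cannot set these 6 apart.

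The lowest log2 ratios belonged to Zfp709, Zfp59, Ahi1, Cdc23 and Selenoi, all 0.93. Zfp709 and Zfp59 are zinc finger genes, with 8 and 17 reads (2.01, 0.82 to 5.39) and 7 and 15 reads (2.03, 0.78 to 5.88). Ahi1 has a role at the primary cilium, Cdc23 is part of the anaphase-promoting complex and Selenoi is an enzyme of phospholipid synthesis. Each had 6 and 13 reads (2.05, 0.73 to 6.58), with equal H3K9me3 inside the interval.

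**Figure D4:**
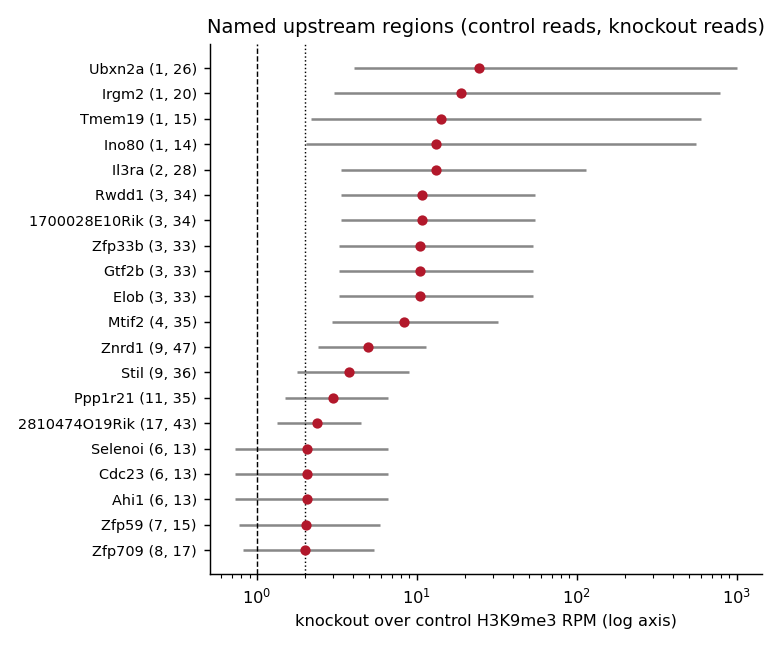
Knockout over control H3K9me3 ratio (points, log axis) with exact 95% counting intervals (lines) for the upstream regions with the highest and lowest log2 ratios and the most knockout reads; control and knockout reads are in brackets, and the lines at 1 and 2 mark equal RPM and the selection limit. The 5 lowest regions, with 6 to 8 control reads, have intervals that cross 1.

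Another listed region of the same gene was present for 70 of the 462 members, downstream of the start site in 64 and across it in 6. In these pairs a median of 387 bp (quartiles 259.25 and 542.25) separated both regions. The upstream region was narrower, with a median of 536.5 bp against 766.5 bp, and lower in H3K4me3 in 42 of the 70 genes. Its H3K9me3 ratio was the higher one in 35 genes, the lower one in 28 and equal in 7. Summed over the pairs, the upstream regions had 211 and 874 reads (joint ratio 3.92, 3.37 to 4.58), and the others 190 and 712 (3.55, 3.02 to 4.19). No pair had intervals that failed to overlap. The interval lay above 1 for 26 of the 70 upstream regions (37.1%) and 18 of the 70 others (25.7%), against 21.1% of the whole table, and for both regions in 8 genes (11.4%). These shares were not tested.

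The pairs with the most reads differed in which side held the higher ratio. At Zfp33b, 3 and 33 reads upstream stood beside 12 and 38 downstream (ratios 10.4 and 2.998). At Mtif2 the regions, 136 bp apart, had 4 and 35 reads upstream and 5 and 16 downstream (8.28 and 3.03). Rbfa, a ribosome-binding factor gene, had 1 and 14 reads upstream and 12 and 35 downstream (13.3 and 2.76). The order was the other way round at Ppp1r21, with 1 and 13 reads downstream (12.3) beside 11 and 35 upstream (3.01). Gtpbp6 (11 and 24 reads against 7 and 22) and Zfp709 (8 and 17 against 9 and 30) also had the lower ratio upstream, as did Zfp451 (14 and 35 against 2 and 6). Znrd1 had 1 and 4 reads downstream, and 1700028E10Rik had 5 and 15. Crlf2, a cytokine receptor gene, was high on both sides, with 1 and 13 reads upstream and 3 and 36 downstream (12.3 and 11.4). Both intervals overlapped in every pair named here. For Zfp33b, Mtif2 and Zfp451 the outer RefSeq 5′ end of the gene lay further upstream than the upstream region, and for Gtpbp6 it lay inside. Their upstream regions are therefore not upstream of the whole gene.

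Some upstream regions lay at or within the transcribed part of their own gene when another start site is taken. The outer 5′ end of the same gene in RefSeq lay inside the region for 47 members (10.2%) and further upstream for 40 (8.66%). Such regions are upstream of the listed start site but not of the whole gene. For 238 members (51.5%) the listed start site was itself the outer 5′ end. Regions that held the outer 5′ end were taller (median 11.3 RPKM) and wider (679 bp) than those whose listed start was the outermost (9.71 RPKM and 560 bp), and joint ratios were 3.41 (2.77 to 4.23) and 3.67 (3.35 to 4.03). Wide regions hold a given point more easily, and wider members were also taller. These widths and heights are therefore not independent of the sorting.

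Divergent neighbours, meaning genes on the other strand whose outer 5′ end lay upstream of the listed start site and inside the region or within 1 kb of it, were found for 77 of the 442 upstream regions that could be assessed (17.4%, exact 95% interval 14.0 to 21.3). Of the other regions, 122 of 891 had one (13.7%, 11.5 to 16.1). The window moves with the region, so the share was also taken around the start site itself. An opposite start lay within 1 kb upstream of the listed start in 71 of 442 genes with an upstream region (16.1%, 12.8 to 19.8) and in 123 of 876 others (14.0%, 11.8 to 16.5), with genes that have both kinds of region counted in both. These intervals overlap, and a higher frequency of divergent neighbours at upstream regions was not shown. The strand was known for 54.6% of RefSeq genes, which makes all these counts minima, and 20 upstream regions on chromosome 18 were not assessed. A further 22 members with no such neighbour had a gene of unknown strand ending in the window.

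Placement relative to the neighbour was limited by the rule, which keeps every region wholly upstream of the listed start site. In the 77 pairs the region edge lay a median of 206 bp from that site. The start sites of a pair were a median of 107 bp apart (quartiles 57 and 230). In 51 of the 77 pairs the region lay wholly downstream of the neighbour's start site, on the side toward which the neighbour is transcribed, and in 21 it spanned that start site. In both kinds of pair the region before 1 gene is also a region at the start of another, and which gene its H3K4me3 and H3K9me3 belong to cannot be told apart. In the remaining 5 the neighbour's start lay beyond the region.

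**Figure D5:**
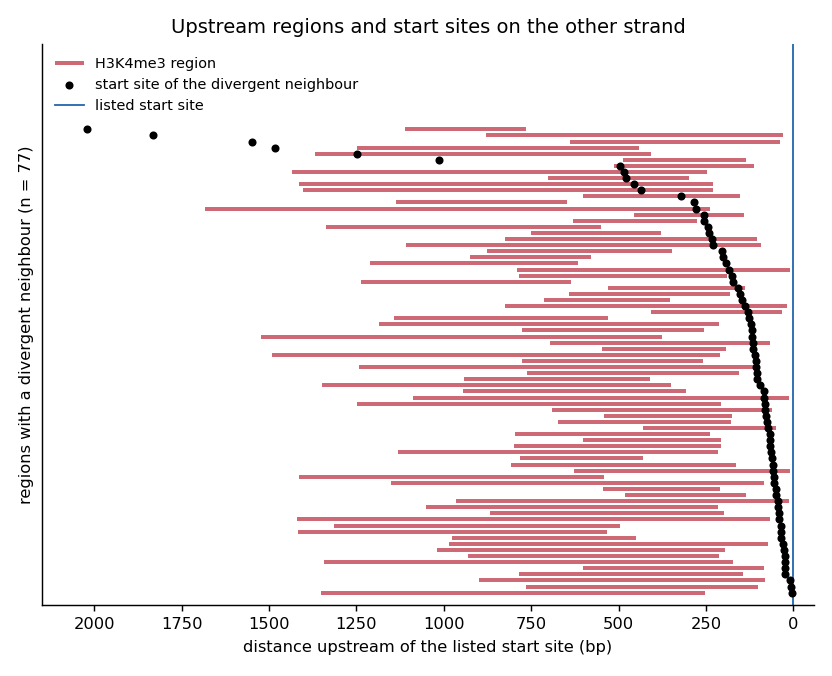
H3K4me3 regions (red bars) and start sites of the divergent neighbour (black points) by distance upstream of the listed start site in bp (x axis), with 1 row for each of the 77 pairs ordered by the distance between both start sites. In 51 pairs the point lies between the bar and the listed start site, and the median distance between both start sites is 107 bp.

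The neighbour was a protein-coding gene in 51 pairs and a long non-coding RNA gene in 26. At Znrd1 the start of Znrd1as lay 30 bp from the listed start, and the region began beyond both. Fbxw2, which encodes an F-box protein, and Gm34653 started 81 bp apart, with 6 and 21 reads in the region (ratio 3.31, 1.29 to 10.03). The region of Arl5a, a small GTPase gene, held the start of A430018G15Rik and had 3 and 13 reads (4.10, 1.13 to 22.4). Lin52, a subunit of a cell cycle repressor complex, started inside the region of Aldh6a1, which had 1 and 9 reads (8.52, 1.18 to 373). Mepce, the capping enzyme of 7SK RNA, with Zcwpw1, and the microRNA gene Gm38670 with Proser3, had 4 and 11 and 4 and 12 reads, with equal H3K9me3 inside both intervals. Apex1, a DNA repair endonuclease gene, and Osgep, an enzyme of tRNA modification, started 56 bp apart, with 1 and 9 reads in a tall region of 26.4 RPKM.

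Regions with a divergent neighbour were wider and taller than those without (medians 631 and 540 bp, 10.6 and 9.62 RPKM). Their summed reads were 184 and 607 (joint ratio 3.12, 2.64 to 3.70), against 918 and 3456 (3.56, 3.31 to 3.84), and the intervals overlapped. The interval lay above 1 for 21.1% of the whole table. It did so for 11 of 77 (14.3%) with a neighbour and for 92 of 365 (25.2%) without, a difference that was not tested. A single control read was present in 49.4% and 43.8% of them. Outside the upstream set the order of these shares was the other way round, at 22.1% of 122 with a neighbour and 19.6% of 769 without. When both kinds of other start site were set aside, 289 of the 442 members (65.4%) had neither an outer 5′ end of their own gene in or beyond the region nor a known divergent neighbour. These had a joint ratio of 3.64 (3.35 to 3.96) and an interval above 1 in 76 cases (26.3%), against 21.1% of the whole table.

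Promoter sequence was available at the exact listed start for 304 of the 462 members (RefSeq, GRCm38.p6), and the 250 bases before the start were searched on both strands. Their median GC content was 61.6% (quartiles 56.3 and 68.0), against 57.6% (51.2 and 63.6) for 614 genes with other regions and 52.4% over the 32851 promoters of that table. Median observed over expected CpG was 0.803, 0.754 and 0.374 in the same order. Spanning regions had the lowest values of the 3 places, with a median of 53.6% GC and 0.705 for CpG, and downstream regions had 59.2% and 0.767. The motif TATAAA was present in 2.96% of member windows, 4.89% of those of other regions and 12.4% of all promoters. GGGCGG, the GC box bound by Sp1, was present in 65.5%, 57.2% and 32.7%, and CCAAT, the box bound by NF-Y, in 39.1%, 39.6% and 33.8%. CCGGAAG, a motif of ETS factors, was found in 21.1%, 20.8% and 6.91%. The NRF1 motif was found in 11.5%, 7.98% and 3.74%.

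Within the upstream set, windows with a divergent neighbour more often held the NRF1 motif, which was present in 13 of 62 (21.0%), against 22 of 242 without a neighbour (9.09%). They also had more CCAAT (48.4% against 36.8%) and GGGCGG (72.6% against 63.6%) and less CCGGAAG (14.5% against 22.7%), and TATAAA was in none of the 62, against 9 of 242 (3.72%). Matches of different motifs may overlap, they are not evidence of binding, and the differences were not tested.

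Most upstream regions belonged to protein-coding genes (437, 94.6%, against 91.2% of the others), with 16 long non-coding RNA, 7 microRNA, 1 small nucleolar RNA and 1 transcribed pseudogene. The region before the small nucleolar RNA gene Snord93 had 8 and 30 reads (3.55, 1.59 to 8.96) and ended 9 bp from its start. Those of the 7 microRNA genes, Mir99b and Mir686 among them, held 12 control and 45 knockout reads together (3.55, 1.85 to 7.37). None of the 7 had an interval above 1, against 21.1% of the whole table. Small RNA genes often lie inside other genes.

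Zinc finger genes with a Zfp symbol held 15 of the 462 upstream regions (3.25%) and 53 of the 919 others (5.77%). The interval lay above 1 for 2 of the 15, Zfp33b and Zfp451 (13.3%), and for 20 of the 53 (37.7%), against 21.1% of the whole table. Their joint ratios were 2.96 (2.17 to 4.10) and 3.66 (3.09 to 4.34), with overlapping intervals. These genes have close relatives, and the counting of reads with several matches is not given in the sources used here.

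Genes of the respiratory chain held 8 upstream regions, 3 of them with an interval above 1 (37.5%). Among the other regions these genes had 2 of 11 (18.2%), and the share over the whole table was 21.1%. Ndufv1, a subunit of complex I, had 1 and 14 reads (13.3, 2.02 to 560), Atp5g1, a subunit of the ATP synthase, 5 and 21 (3.98, 1.46 to 13.5), and Cox5a, a subunit of cytochrome c oxidase, 7 and 22 (2.98, 1.23 to 8.25). Cytoplasmic ribosomal protein genes held 4, among them Rps19, of the small subunit, with 1 and 8 reads (7.57, 1.02 to 336). Of 5 mitochondrial ribosomal protein genes the interval lay above 1 at Mrpl15 alone (2 and 14 reads, 6.63, 1.52 to 60.1). That is 20.0%, against 21.1% of the whole table.

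DNA repair genes, a list of 60, held 5 upstream regions, at Apex1, Bard1, Poli, Polk and Xrcc2, with 17 and 54 reads together (3.01, 1.72 to 5.53). The interval lay above 1 at Apex1 and at Xrcc2, which acts in homologous recombination (6 and 18 reads, 2.84, 1.08 to 8.74). Solute carrier genes held 8, with an interval above 1 at Slc35b1 (6 and 22 reads) and Slc39a6 (1 and 10 reads). Tmem genes held 6, with Tmem19 above 1, and 23 regions belonged to genes with Rik or Gm symbols, 4 of them above 1. Set beside the 21.1% of the whole table, groups this small give no share that can be told from it.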

How the data were processed

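H3K9me3 ChIP-seq was measured in LSK cells, with 1 control and 1 knockout library grouped by the genotype label. Trimmomatic, Bowtie2 and the build mm10 are named in the submitters' processing notes. None of the sources used here gives the region caller, the counting window or the treatment of duplicate reads. The authors deposited H3K9me3 as normalized values, read here as RPM (whole multiples of 0.0405 and 0.0384 RPM, 100.0% whole within 0.01 reads), from which reads were recovered. The authors also deposited the ratio of both values and H3K4me3 heights in RPKM. Another 12 deposited columns stayed unused.

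Plus-strand start sites in the file were 0-based and are given 1-based on mm10. A gene name that had become a date was restored from its accession. Ratios carry exact (Clopper-Pearson) 95% intervals of the knockout share of reads, scaled by library totals. They cover counting error only and ignore the selection on the ratio. For log2 ratios 0.0405 RPM (the 5th percentile) was added to both libraries. Python 3.11.15 and scipy 1.17.1 were used, and intervals and positions were tested on simulated data. The simulated counts were not selected on the ratio, so they do not show how the intervals behave in this table.

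Divergent neighbours were outer 5′ ends of RefSeq genes (GRCm38.p6) with a strand in the RefSeq promoter table or the region table. Genes were named by rule: extremes of log2 ratio, knockout reads, height, width and distance, the regions next to the start site, divergent pairs and genes with a second region. Group members were named beside their counts after their values were seen. The members and lists were chosen with earlier results of these data known. Alternatives covered the upstream rule, the pseudocount, low values, scaling, the interval and the window. Some genes are not reported here.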

Additional observations from a re-analysis of the deposited data

How the results depend on the processing

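No paired analysis was possible because there was 1 library per group, and no replicate could be left out. Of 56 recomputed summary values, 45 stayed within the counting interval, within 1.5 times the count or, for medians, within the exact interval of the median. The 45 include values that could not change or could hardly change. Taking 1 region per gene kept all 462 members, and adding the regions that adjoin the start site brought in only 2. The 94 recomputed log2 ratios of 47 named regions stayed inside their counting intervals, which are wide. The rule that takes the region's centre gave 600 regions with a median width of 597 bp, and the RefSeq outer 5′ end gave 375 regions with a joint ratio of 3.54. The joint ratio of 3.48 became 3.17 without single control reads. The median log2 ratio of 1.26 became 1.35 in the better covered regions, 1.48 with a pseudocount 10 times smaller and 0.70 with 1 that was 5 times larger. Scaling to equal sums over the table turned it to -0.13, the joint ratio to 1.01 and the 107 intervals above 1 to 1 (0.22% of the upstream regions, against 0.36% of the whole table), by construction in a table of ratios above 2. With 99% intervals 52 of the 462 upstream regions lay above 1 (11.3%), against 10.4% of the whole table. Of 77 divergent neighbours, 21 started inside the region and 51 were protein-coding. The window around the start site itself, and leaving out regions at another start site of the gene (joint ratio 3.55), were chosen after seeing the data. Depth limits single values, since 262 upstream regions (56.7%) held fewer than 10 reads in the sum of both libraries.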
